A study of Mus musculus with 2 samples.

Results

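Genes of the cell division machinery were examined in a comparison of the degenerative cornea with the normal cornea of BALB/c mice. The mice developed corneal degeneration spontaneously and in 1 eye only, and the unaffected eye supplied the normal cornea. Their total RNA was labelled with different dyes and applied to 2 spotted arrays, with Cy5 for the degenerative and Cy3 for the normal cornea on array 1 and the reverse on array 2. The sources used here do not state the age or number of the mice, or whether RNA was pooled. Whether both arrays carried the same RNA extracts is not stated either. As a labelled dye swap they were treated as 1 replicate, so differences below have no replicate check and no p-value. The SD given with a ratio is that of the 2 arrays, and whether it covers more than technical spread is not known.

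The rule that picks the genes reads only their names. A spot was taken if the name printed in the array tables began with Mcm, Cdc, Cdk, Cdkn, Rfc, Orc or Kif followed by a digit, was Ccn followed by a letter from a to h and an optional digit, or was Birc5, Top2a, Pcna, Mki67, Plk1, Bub1, Bub1b, Rrm1, Rrm2 or Tyms. This gave 124 names on 148 spots, of 14773 named genes on the arrays. A spot counted as measured if at least 1 of the 2 tissues was above background on each array, and 94 of the 124 names had such a spot, as did 7896 of all named genes. All 4 channels (2 tissues on 2 arrays) were above background for 86 of the 94, and none was saturated. Names follow current mouse symbols, and 13 names were updated, among them Cdc2a to Cdk1.

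Before a cell divides, the origin recognition complex (Orc proteins) and Cdc6 load the ring-shaped MCM helicase onto DNA in G1, and cyclin-dependent kinases together with Cdc7 then start replication. The sliding clamp PCNA, placed by the RFC clamp loader, holds the polymerases on their template, and ribonucleotide reductase and thymidylate synthase supply the nucleotides. In mitosis, cyclin B with Cdk1, Polo-like and Bub kinases, mitotic kinesins and the anaphase-promoting complex (APC/C) order the separation of chromosomes. In the cornea, dividing cells lie mainly in the limbus and the basal layer of the epithelium. The name rule also takes in genes assigned here to other roles. Examples are transport kinesins, the small GTPase Cdc42 and its effectors, the neuronal kinase Cdk5 with its partners, and kinases and cyclins of transcription. Of the 94 measured genes, 57 were assigned a role in the cell cycle, replication or mitosis, and 37 another role. Each gene was given a single role, so a further role in division is not counted.

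The promoters of 4 members are shown because Orc1, Top2a and Birc5 had higher ratios on both arrays and Cdk1 a lower one, so that letters linked with cell cycle control can be read in both. They are the 250 bases before the start in RefSeq, assembly GRCm38.p6, given 5′ to 3′ on the strand of the gene. Capitals mark matches, on either strand, to the E2F words TTTGGCGC, TTTCGCGC, TTTCCCGC and TTTGCCGC, to the words of the cell cycle homology region (CHR), TTTGAA and TTCGAA, or to CCAAT. No marked match overlaps another, and a palindrome was counted once.
Orc1, chr4:108579204-108579453, plus strand: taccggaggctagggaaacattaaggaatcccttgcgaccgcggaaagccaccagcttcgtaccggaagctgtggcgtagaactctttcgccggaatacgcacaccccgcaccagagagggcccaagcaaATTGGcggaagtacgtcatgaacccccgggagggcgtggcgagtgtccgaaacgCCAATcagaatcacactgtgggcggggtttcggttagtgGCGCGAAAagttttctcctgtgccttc
Top2a, chr11:99024190-99024439, minus strand: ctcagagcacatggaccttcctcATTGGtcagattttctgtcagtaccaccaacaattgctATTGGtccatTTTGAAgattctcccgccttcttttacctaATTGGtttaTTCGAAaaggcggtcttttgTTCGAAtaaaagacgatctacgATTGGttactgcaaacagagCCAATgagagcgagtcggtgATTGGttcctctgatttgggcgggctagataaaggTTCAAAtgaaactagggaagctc
Birc5, chr11:117848987-117849236, plus strand: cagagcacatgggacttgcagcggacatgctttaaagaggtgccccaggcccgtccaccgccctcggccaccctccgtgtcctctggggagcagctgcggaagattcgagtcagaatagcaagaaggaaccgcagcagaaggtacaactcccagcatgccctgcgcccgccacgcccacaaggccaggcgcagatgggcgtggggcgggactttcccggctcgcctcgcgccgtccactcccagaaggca
Cdk1, chr10:69352913-69353162, minus strand: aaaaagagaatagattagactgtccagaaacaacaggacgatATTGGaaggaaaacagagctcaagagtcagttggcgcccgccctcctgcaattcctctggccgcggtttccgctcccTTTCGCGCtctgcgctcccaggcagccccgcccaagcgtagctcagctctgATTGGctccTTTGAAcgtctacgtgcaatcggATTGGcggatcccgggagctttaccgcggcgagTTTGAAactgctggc
The window of Orc1 holds 1 E2F word and 2 CCAAT boxes, that of Top2a holds 4 CHR words and 6 CCAAT boxes, and that of Birc5 holds none of these letters. The window of Cdk1 holds 1 E2F word, 2 CHR words and 3 CCAAT boxes. In the table's full windows of 300 bases, which run 50 bases past the start, 14 of 65 members with a cell cycle, replication or mitosis role and an entry held an E2F word (21.5%), 1 of 43 members with another role did (2.33%), and 626 of 27025 promoters of all genes did (2.32%). A CHR word was found in 26 of the 65 and in 7 of the 43 (16.3%), against 19.4% of all promoters. A CCAAT box was found in 40 of the 65 (61.5%) and in 15 of the 43 (34.9%), against 37.9% of all promoters.

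Ratios are log2 values, degenerative over normal, as the authors normalized them, and a value above 0 means more signal from the degenerative cornea. The 94 measured genes had a median ratio of 0.079, beside 0.008 for all named genes measured. No member reached 2-fold in the same direction on both arrays, beside 1.03% of all named genes (81 of 7896). Ratios above 0 on both arrays were found for 45 members (47.9%), against 34.6% of all named genes, and ratios below 0 on both for 22 (23.4%), against 32.9%. The other 27 members had opposite signs on the arrays, against 32.5%. With raw ratios centred on each array's median, 16 members were above 0 and 2 below 0 on both arrays, against 950 and 456 of all 7896 genes. The medians of the members were 0.070 on array 1 and 0.035 on array 2, and those of all named genes 0.024 and -0.016. The typical gap between the arrays for 1 member, a median of 0.141 in size, was larger than the members' median ratio. The median was 0.091 for the 57 genes with a cell cycle, replication or mitosis role and 0.058 for the other 37. The members above the median signal of all genes had a median ratio of 0.032 (42 members), beside 0.0019 for all genes of that kind, and the 52 dimmer members had 0.093, beside 0.013.

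**Figure D1:**
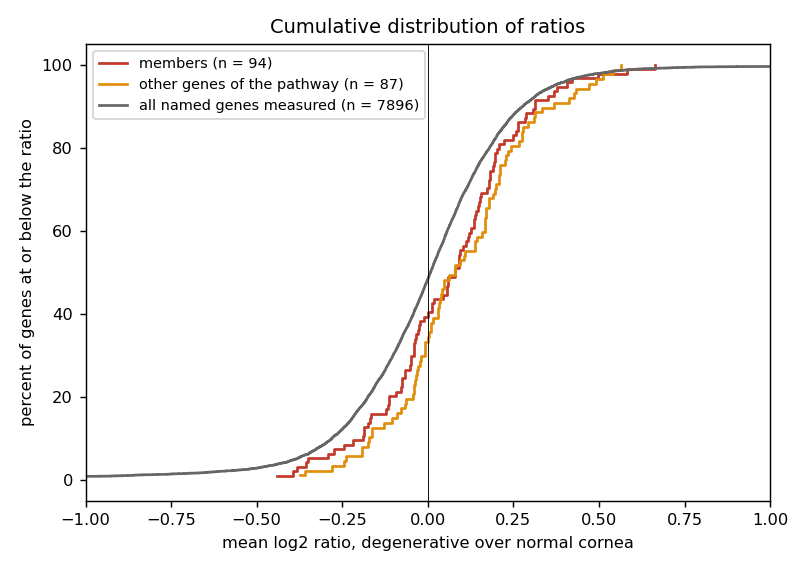
Cumulative percent of genes (vertical axis) at or below a mean log2 ratio, degenerative over normal cornea (horizontal axis), for the 94 measured members, 87 other genes of the same pathway and all 7896 named genes measured. The curves of the members and of the pathway genes lie to the right of that of all genes over most of the range, by about the difference of the medians (0.079 and 0.080 against 0.008).

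A smaller limit was used to pick out single members, a log2 ratio of at least 0.3 in size (1.23-fold) in the same direction on both arrays. Higher by this limit were 7 of 94 members, Cdc14b, Kif5b, Ccng2, Birc5, Orc1, Top2a and Mcm4, against 4.51% of all named genes. Lower was 1, the CDK inhibitor Cdkn1c, against 4.83%, and this call was lost in 4 of 17 alternatives. Cdkn1c has no value when all 4 channels must be above background, with the 95th percentile of Empty spots as the limit or without print blocks 41, 42, 45 and 46, and with raw ratios it missed the limit. The 7 lie among the 8 members with the highest mean ratios. Higher calls were lost as well. With all 4 channels above background 6 of 86 were higher (all genes 4.67%), without Cdc14b. With the 95th percentile limit 4 of 61 were (all genes 4.59%), without Cdc14b, Ccng2 and Orc1. With the median of neighbouring spots subtracted, chosen after seeing the data, 4 of 94 were (all genes 4.75%). There Cdc14b, Birc5, Orc1 and Top2a missed the limit and Mki67 passed it.

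**Figure D2:**
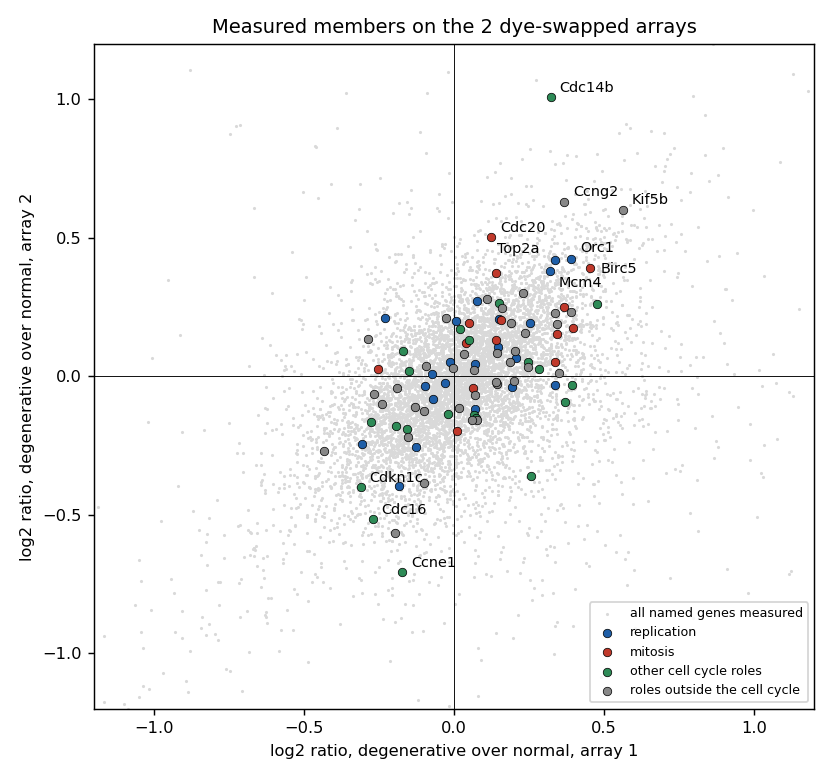
Log2 ratio, degenerative over normal cornea, on array 1 (horizontal) and array 2 (vertical) for the 94 measured members, coloured by role, over all named genes measured (grey; genes beyond 1.2 in size are outside the axes). Most members lie within 0.3 of 0 on both axes, Kif5b (0.56 and 0.60) is far out on both, and Cdc14b (0.32 and 1.01) is far out on array 2 alone.

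The MCM helicase, which unwinds DNA ahead of the replication fork, was measured through all of Mcm2 to Mcm7. The other name placed in this group, the MCM relative Mcm8, was not measured. Intensities below are the deposited ones after background subtraction, given for arrays 1 and 2. They were not scaled between the dyes, so their quotient differs from the normalized ratio. Mcm4 had intensities of 4862 and 5484 in the degenerative cornea, against 4248 and 3900 in the normal cornea. Its ratios of 0.32 and 0.38 (0.35 ± 0.04, SD of the 2 arrays) were the highest of the helicase and nearly equal on both arrays. Mcm5 had 4158 and 4120 in the degenerative cornea, against 3839 and 3258 in the normal cornea, and a ratio of 0.18 ± 0.04. Mcm6 (0.13 ± 0.03), Mcm3 (0.10 ± 0.14) and Mcm2 (0.08 ± 0.16) were smaller, and the sign of Mcm2 differed between the arrays. Mcm7 had -0.03 ± 0.003. The ratios of these subunits ran from -0.03 to 0.35, each from 1 spot. In 7 members outside the helicase, 2 spots of a gene lay 0.03 to 0.64 apart, with a median gap of 0.30. A difference among the subunits was therefore not established.

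Genes of origin recognition and firing went both ways. Orc1, the large ATP-binding subunit that cells renew in each cycle, had intensities of 850 and 1188 in the degenerative cornea, against 888 and 582 in the normal cornea. Its ratios were 0.39 and 0.42 (0.41 ± 0.02). Orc6, the smallest subunit, had 2749 and 2954 in the degenerative cornea, against 3496 and 3142 in the normal cornea, with ratios of -0.31 and -0.24 (-0.28 ± 0.04). Both subunits had nearly the same ratio on both arrays, in opposite directions. Orc2 (0.14 ± 0.10), Orc5 (0.06 ± 0.02) and Orc4 (-0.07 ± 0.04) lay between them, while Orc3 (-0.01 ± 0.31) and the helicase activator Cdc45 (0.15 ± 0.26) had opposite signs on the arrays. The group's median was 0.057, with 3 of 7 measured genes above 0 and 2 below 0 on both arrays.

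The clamp and its loader had a median of -0.03. Pcna, the sliding clamp, was the brightest of these spots, with 25373 and 25815 in the degenerative cornea, against 24523 and 23612 in the normal cornea, and its ratio of 0.17 ± 0.14 was above 0 on both arrays. Rfc4, a subunit of the clamp loader, had 2926 and 2766 in the degenerative cornea, against 3457 and 3437 in the normal cornea. Its ratios were -0.18 and -0.40 (-0.29 ± 0.15). Rfc2 had -0.07 ± 0.01, and Rfc3 (-0.03 ± 0.06) and Rfc5 (-0.02 ± 0.13) were near 0 with opposite signs.

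Among genes of nucleotide supply and DNA topology, Top2a, the topoisomerase that untangles sister chromatids, had 1964 and 2601 in the degenerative cornea, against 1707 and 1650 in the normal cornea. Its ratios were 0.34 and 0.42 (0.38 ± 0.06). Rrm2, the ribonucleotide reductase subunit made in S phase, had 2810 and 2896 in the degenerative cornea, against 2332 and 2331 in the normal cornea, with 0.22 ± 0.04. Rrm1, the subunit present through the cycle, had 0.02 ± 0.05. Tyms, thymidylate synthase, had 3929 and 3902 in the degenerative cornea, against 4631 and 4322 in the normal cornea, and was below 0 on both arrays (-0.19 ± 0.09). These enzymes of S phase stood on both sides of 0.

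Of the 16 role groups, the one named for mitotic checkpoint and cytokinesis had the highest median (0.31). It rests on 3 measured genes, Birc5, Mki67 and Cdc20, and on none of the checkpoint kinases. The S to M cyclins, the mitotic checkpoint and cytokinesis genes and the mitotic kinesins together had a median of 0.19, with 11 of 14 measured genes above 0 on both arrays and 0 below 0 on both. Against these 11 (78.6%), 34.6% of all named genes were above 0 on both arrays. These counts depend on the grouping: with Cdk1 and the APC/C and ubiquitin genes, described below, the median was 0.13, and 12 of 20 were above 0 and 3 below 0 on both arrays. Birc5, survivin, a subunit of the chromosomal passenger complex, had 4689 and 3361 in the degenerative cornea, against 3898 and 2110 in the normal cornea. Its ratios were 0.45 and 0.39 (0.42 ± 0.04). Mki67, the proliferation antigen that coats mitotic chromosomes, had 3656 and 3521 in the degenerative cornea, against 3099 and 2796 in the normal cornea, and a ratio of 0.31 ± 0.08. Cdc20, which activates the APC/C at anaphase, had 4981 and 5847 in the degenerative cornea, against 4607 and 4049 in the normal cornea. Its ratios of 0.12 and 0.50 (0.31 ± 0.27) differed more than those of Birc5 and Mki67. The checkpoint kinases Bub1 and Bub1b and the Polo-like kinase Plk1 were not above background on either array, so the kinases of this group have no value here.

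The 3 measured S to M cyclins were all above 0 on both arrays. Ccna2, the cyclin of S phase and mitotic entry, had 1981 and 2323 in the degenerative cornea, against 1899 and 1488 in the normal cornea, with ratios of 0.14 and 0.37 (0.26 ± 0.17). Ccnb2 had 6730 and 7144 in the degenerative cornea, against 6331 and 6056 in the normal cornea (0.18 ± 0.03). Ccnb1, the main mitotic cyclin, had the smallest ratio (0.08 ± 0.06). Cdk1, the kinase these cyclins activate, had 4404 and 4515 in the degenerative cornea, against 5376 and 4980 in the normal cornea. It was lower in the degenerative cornea in both dye orientations, with ratios of -0.19 and -0.18 (-0.19 ± 0.01), opposite in sign to its cyclins.

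Mitotic kinesins had a median of 0.13, with 5 of 8 measured genes above 0 on both arrays and the other 3 of opposite signs. Kif23, which acts in the central spindle at cytokinesis, had 1124 and 1329 in the degenerative cornea, against 884 and 1016 in the normal cornea, with 0.29 ± 0.16. Kif14, a cytokinesis kinesin, had 0.25 ± 0.13 and Kif22, which binds chromosome arms, 0.19 ± 0.20. Kif20a (0.13 ± 0.005) and Kif4 (0.12 ± 0.10) were above 0 on both arrays as well. Kif2c, which removes tubulin at kinetochores, was near 0 (0.01 ± 0.07), and Kif20b (-0.09 ± 0.14) and Kif18a (-0.11 ± 0.20) were the lowest.

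**Figure D3:**
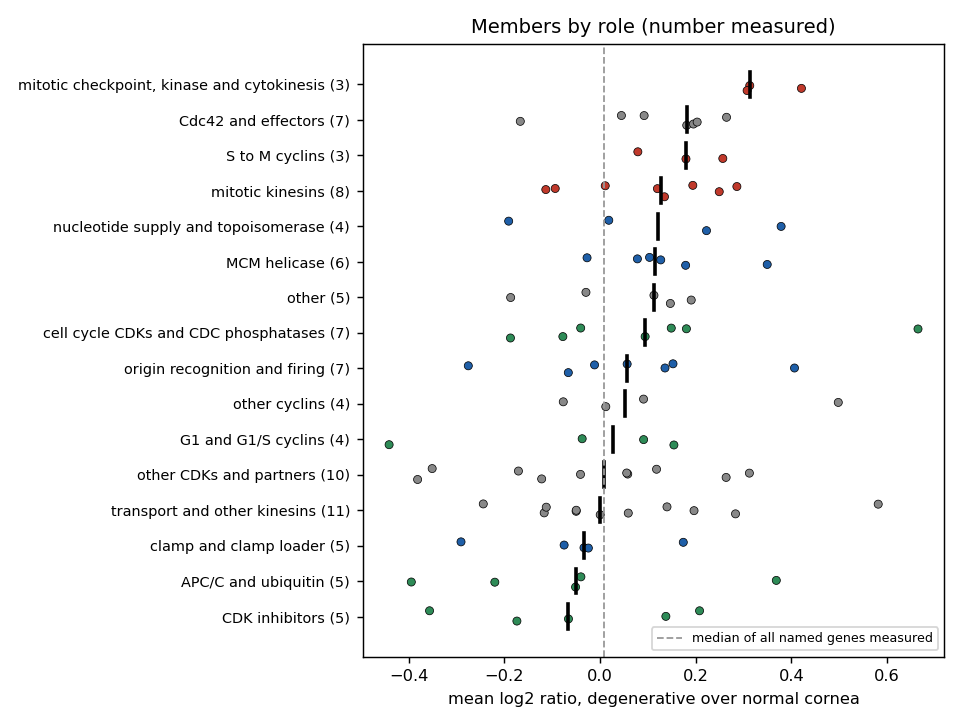
Mean log2 ratio, degenerative over normal cornea, of each measured member (points) by role, with the number measured in brackets and the group median as a black bar; blue marks replication, red mitosis, green other cell cycle roles and grey other roles, and the dashed line is the median of all named genes measured (0.008). Medians run from 0.31 for the mitotic checkpoint and cytokinesis group (Birc5, Mki67 and Cdc20) to -0.07 for the CDK inhibitors. Every group other than the checkpoint and cytokinesis group and the S to M cyclins has members on both sides of 0.

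The cyclins of G1 and the G1/S boundary did not share a direction. Ccne1, cyclin E1, which starts S phase with Cdk2, had 740 and 440 in the degenerative cornea, against 1030 and 597 in the normal cornea, and its degenerative signal on array 2 was within background. Its ratios of -0.17 and -0.71 (-0.44 ± 0.38) gave the lowest mean of all 94 measured members. The D cyclins, which couple growth signals to the cycle, were near 0, with Ccnd1 at 0.15 ± 0.18, Ccnd3 at 0.09 ± 0.06 and Ccnd2 at -0.04 ± 0.15. Their partner Cdk4 had -0.04 ± 0.16, and Cdk2, the partner of cyclins E and A, 0.15 ± 0.14. Cdk6 was not above background on array 1.

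Of the phosphatases that act on CDKs and their substrates, Cdc14b had the highest mean of all members. It had 647 and 1016 in the degenerative cornea, against 596 and 346 in the normal cornea, which on array 2 was not above background. The ratios of 0.32 and 1.01 (0.66 ± 0.49) differed more between arrays than those of any other member past the smaller limit. The CDK-activating phosphatases had ratios of 0.18 ± 0.30 for Cdc25b, 0.09 ± 0.11 for Cdc25a and -0.08 ± 0.08 for Cdc25c.

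CDK inhibitors had the lowest median of the 16 role groups, -0.07, with 1 of 5 measured genes above 0 and 2 below 0 on both arrays. Cdkn1c, the inhibitor p57, had 487 and 782 in the degenerative cornea, against 899 and 699 in the normal cornea, and its degenerative signal on array 2 was within background. Its ratios were -0.31 and -0.40 (-0.36 ± 0.06). Cdkn2b, an inhibitor of Cdk4 and Cdk6 that TGF-beta induces, was read by 2 spots and had -0.17 ± 0.02. Cdkn2c, of the same family, had 1713 and 1612 in the degenerative cornea, against 1703 and 1149 in the normal cornea, with 0.21 ± 0.08. Cdkn1a, the p53 target p21, had 5943 and 5780 in the degenerative cornea, against 4977 and 5463 in the normal cornea, and its ratios of 0.37 and -0.09 had opposite signs. Cdkn2d (-0.07 ± 0.12) also changed sign between arrays. The group's median changed sign with the settings, between -0.15 and 0.06, with 4 of 17 alternatives above 0. Cdkn1b and Cdkn2a were not above background on either array.

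**Figure D4:**
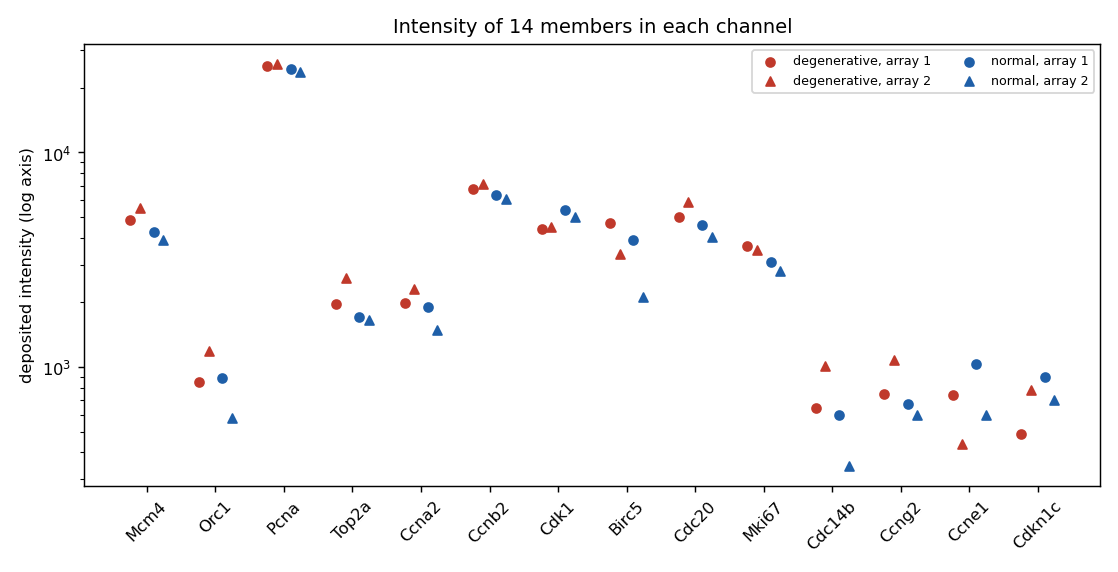
Deposited intensity (log axis) of 14 members in the degenerative cornea (red) and the normal cornea (blue) on array 1 (circles) and array 2 (triangles), not scaled between dyes. Birc5, Top2a, Mcm4, Mki67 and Cdc20 are brighter in the degenerative cornea on both arrays (Mcm4 4862 and 5484 against 4248 and 3900), and Cdk1 and Ccne1 are dimmer in it on both (Cdk1 4404 and 4515 against 5376 and 4980).

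Subunits of the APC/C, the ubiquitin ligase that ends mitosis, were split. Cdc27 had 852 and 878 in the degenerative cornea, against 849 and 448 in the normal cornea, with ratios of 0.48 and 0.26 (0.37 ± 0.15). Cdc16 had 1282 and 1290 in the degenerative cornea, against 1731 and 1469 in the normal cornea, with -0.27 and -0.52 (-0.39 ± 0.17). These 2 subunits of 1 complex had opposite directions on both arrays. Cdc26 was also below 0 on both arrays (-0.22 ± 0.08), and Cdc23 (-0.04 ± 0.19) and the ubiquitin-conjugating enzyme Cdc34 (-0.05 ± 0.44) changed sign.

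Members assigned to roles other than division included Kif5b and Ccng2, which ranked 2 and 3 of the 94 by mean. Kif5b, the conventional kinesin heavy chain that carries organelles along microtubules, had 2003 and 2146 in the degenerative cornea, against 1654 and 1062 in the normal cornea. Its ratios were 0.56 and 0.60 (0.58 ± 0.03). Ccng2, a cyclin linked with leaving the cell cycle, had 746 and 1078 in the degenerative cornea, against 676 and 600 in the normal cornea, with 0.37 and 0.63 (0.50 ± 0.19). Transport and other kinesins had a median of 0.0005, from Kif3c (-0.24 ± 0.20), a neuronal kinesin, to Kif5b. In the group of other CDKs, Cdk8, of the Mediator complex, had 0.31 ± 0.11 and Cdk13, a kinase of transcription, 0.26 ± 0.05. The neuronal kinase Cdk5 (-0.12 ± 0.01) and its activator Cdk5r1 (-0.35 ± 0.12) were below 0 on both arrays, as were Cdk5rap1 (-0.38 ± 0.26) and Cdk5rap3 (-0.17 ± 0.10). Its other partners differed, with Cdk5rap2 above 0 on both arrays (0.06 ± 0.03) and the activator Cdk5r2 of opposite signs (-0.04 ± 0.17). Of Cdc42 and its effectors, 5 of 7 measured genes were above 0 on both arrays, with a median of 0.18, from Cdc42ep3 (-0.17 ± 0.14) to Cdc42se1 (0.26 ± 0.11), while Cdc42 itself had 0.04 ± 0.03. The transcription cyclins Ccnc (-0.08 ± 0.30) and Ccnh (0.01 ± 0.02) had opposite signs on the arrays. The other CDC names, in chaperoning and splicing among other roles, ran from Cdc37l1 (-0.19 ± 0.05) to Cdc40 (0.19 ± 0.003).

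Different spots of 1 gene gave a second measure of error. For 7 members with 2 kept spots, the means of the spots lay 0.03 to 0.64 apart, with a median gap of 0.30. The widest gap was that of Cdc37l1 (-0.51 and 0.13), and the narrowest that of Kif1c (-0.06 and -0.04). Most ratios above are of that size or smaller, and all members past the smaller limit were read by 1 kept spot each.

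Several of the highest members shared a place on the array. Of the 7 members with the highest means, 4 (Kif5b, Birc5, Orc1 and Cdc27) were printed in 1 print block, block 39, which holds 8 measured members. The median of all 325 kept gene spots of that block was 0.0003, and 4.62% of them were at least 0.3 on both arrays, beside 4.07% of kept spots of all blocks. Without the block, an alternative chosen after seeing the data, the members' median was 0.058. By the smaller limit 4 of 87 members were then higher and 1 lower, against 4.48% and 4.77% of all genes. With the median of neighbouring spots subtracted, also chosen after seeing the data, Birc5 had 0.47 on array 1 and 0.09 on array 2, Orc1 0.29 and 0.30, Top2a 0.29 and 0.38, and Kif5b 0.73 and 0.72. The part of spot position in these ratios was not tested further.

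The 30 members that were not above background in any tissue on at least 1 array, and so have no ratio here, were the MCM relative Mcm8, the replication genes Mcm10, Cdc6 and Cdc7, the cyclins Ccnb3 and Ccnf, Cdk6 and Cdc14a, the inhibitors Cdkn1b and Cdkn2a with the CDK-associated phosphatase Cdkn3, Plk1, Bub1 and Bub1b, the mitotic kinesins Kif11, Kif18b and Kif2b, Cdc42bpa, and 12 transport and other kinesins, including the neuronal Kif1a and Kif5c.

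Other genes of the pathway, a list of 123 that the name rule does not take, had 87 measured members and a median of 0.080. Of these, 40 were above 0 and 19 below 0 on both arrays (all named genes 34.6% and 32.9%). On both arrays 0 were 2-fold (all named genes 1.03%). By the smaller limit 7 of the 87 were higher and 1 lower (all named genes 4.51% and 4.83%). The highest were Pole, the leading-strand polymerase (0.56 ± 0.16), Tacc3, a spindle protein (0.54 ± 0.24), Lig1, the ligase that joins Okazaki fragments (0.51 ± 0.11), and the retinoblastoma relative Rbl1 (0.49 ± 0.02). The lowest were Anapc10, a subunit of the APC/C (-0.37 ± 0.05), Rpa3, of the single-strand binding complex (-0.36 ± 0.14), and the transcription factors E2f1 (-0.28 ± 0.16) and E2f5 (-0.24 ± 0.13).

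Among members with an entry in the promoter table, the 22 measured genes with a CHR word had a median ratio of 0.14, against 0.079 for the 59 without one. The 11 with an E2F word had 0.094, against 0.085 for the 70 without. The 42 with a CCAAT box had 0.12, against 0.045 for the 39 without. Cdk1, with words of all 3 kinds, had a ratio below 0, and Birc5, with none, was among the highest.

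Both RNAs held the corneal epithelial keratin Krt12, saturated in both (71584 and 62038 in the degenerative cornea, against 71440 and 62302 in the normal cornea), and also transcripts of other eye tissues. Of 15 epithelial markers 12 were measured, 9 above 0 and 0 below 0 on both arrays. Their median was 0.14, but 5 of the 12 (Krt12, Krt5, Krt14, Aldh3a1 and Perp) were saturated. The 7 others had a median of 0.15, 6 of them above 0 on both arrays, and summed intensities of 119246 and 115694 in the degenerative cornea, against 102900 and 102087 in the normal cornea. Of 18 retinal markers 14 were measured and 13 were below 0 on both arrays. Their median was -1.56, with summed intensities of 94007 and 88675 in the degenerative cornea, against 213358 and 189994 in the normal cornea. Of 10 neuronal markers 5 were measured, with a median of -0.41 and sums of 2131 and 3790 in the degenerative cornea, against 5870 and 5070 in the normal cornea. Of 9 lens markers all were measured, with a median of 1.71 and sums of 101978 and 107872 in the degenerative cornea, against 34635 and 34344 in the normal cornea. The list was split, with 8 above 0 and 1 below 0 on both arrays. Only 5, all crystallins, were 2-fold higher on both. Mip had 0.43 ± 0.10, Bfsp1 0.09 ± 0.07, Bfsp2 0.08 ± 0.05 and the crystallin Cryab -0.02 ± 0.002. Of 10 immune markers 3 were measured, with a median of 0.03, and the leukocyte marker Ptprc did not pass the background filter. Of 6 markers of melanocytes, iris and ciliary body 3 were measured, all below 0 on both arrays. Their median was -0.85, with sums of 16871 and 17506 in the degenerative cornea, against 31730 and 29595 in the normal cornea. Of 5 markers of vessel endothelium 3 were measured, 2 of them below 0 on both arrays. Their median was -1.57, with sums of 1507 and 1508 in the degenerative cornea, against 2780 and 1670 in the normal cornea. That median is the value of Cldn5. The degenerative signals of Cldn5 (188 and 216) and Flt1 (276 and 46) were within background on both arrays. The brighter Kdr had 0.13 ± 0.30, with opposite signs. Of 7 keratocyte markers 3 were measured, all below 0 on both arrays. Their median was -0.19, with sums of 69926 and 69947 in the degenerative cornea, against 89219 and 93126 in the normal cornea. The part of tissue content in the members' ratios was not tested, and in whole tissue fewer cells of a type cannot be told apart from less RNA per cell.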

How the data were processed

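Per the labels' protocols, RNA was isolated with Trizol, precipitated, cleaned up and labelled by cRNA amplification. The deposited tables give Cy5 and Cy3 intensities per spot, some below 0, so a background had been subtracted by the authors. Per the file headers they also hold a normalized log2 ratio of degenerative over normal, repeated as a linear ratio. Neither scanner nor normalization method is given in the sources used here. The log2 ratios were used as deposited. The series' value table was identical to them.

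Control spots (1780 of 37632 per array) were left out. A channel's background limit lay 3 scaled median absolute deviations over the median of the 632 Empty spots (290 and 788.5 for the degenerative cornea on arrays 1 and 2, 569.5 and 373.2 for the normal cornea). A spot was kept if a channel passed on each array, and a gene's ratio is the mean over its kept spots. Saturation was 98% of the channel's highest value. Symbols, and promoters for 108 members, came from RefSeq tables (GRCm38.p6), with the first listed start of each gene. Alternatives used limma 3.58.1 (R 4.3.3). Other steps used Python 3.11.15 and pandas 2.3.3 and were tested on simulated data. The number of arrays limits the precision. The members, lists, role groups and limits were chosen with earlier results of these data known. Genes named are the members past a limit, the highest and lowest overall and of each role group, the core genes of the cycle whatever their value, and the extremes of the pathway list.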

Additional observations from a re-analysis of the deposited data

Results flagged for a closer look

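Spots named Empty hold no gene and enter no comparison, yet 65 of 632 passed the background filter, all of them among the 402 Empty spots of print blocks 41, 42, 45 and 46 and none of the 230 elsewhere. The measured members printed in these 4 blocks are Pcna, Ccnb1, Cdkn1c, Cdk5, Kif6 and Kif21a. Without these blocks the 88 members left had a median log2 ratio of 0.085, beside 0.008 for all genes.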

How the results depend on the processing

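The members' median stayed above that of all named genes in all 17 alternatives run, which changed the filter, the background limit, the normalization, the spots and arrays used, the member rule, the centring and the place on the array. Their median ran from 0.035 to 0.133, and the gap to all genes from 0.046 to 0.084. Leaving out saturated spots could not change the members' median, as no member was saturated. Taking the median over spots could not either, as no member had more than 2 kept spots. With the 95th percentile of Empty spots as the limit, 61 members were measured. Of these, 28 were above 0 on both arrays (45.9%, all genes 36.6%) and 4 were higher by 0.3 (all genes 4.59%). With raw ratios centred on the array median, which carry no intensity-dependent correction, the median was 0.13. The other pathway genes had 0.13, while the median of all genes moved to 0.060. Of the 94 members, 16 were above 0 and 2 below 0 on both arrays, against 950 and 456 of all 7896 genes. With these ratios 5 were higher and 0 lower by 0.3 (all genes 2.17% and 1.86%). On 1 array alone the median was 0.035 to 0.070, 55 to 62 members were above 0, 32 to 39 below 0, 16 to 22 passed 0.3 and 0 to 1 was 2-fold (Cdc14b, on array 2). With cell cycle, replication and mitosis roles alone, 28 were above 0 and 13 below 0 (49.1% and 22.8%, all genes 34.6% and 32.9%). Without print block 39, 4 were higher and 1 lower by 0.3 (all genes 4.48% and 4.77%). With the local median subtracted, 4 were higher and 1 lower as well (all genes 4.75% and 4.98%). These last alternatives, and centring each array on the median of all genes, were chosen after seeing the data. The cause of these differences was not tested. The medians of the MCM helicase, S to M cyclins, mitotic checkpoint and cytokinesis genes and mitotic kinesins stayed above 0 in all 17 alternatives. Those of nucleotide supply and topoisomerase and of origin recognition and firing did as well. The median of the APC/C and ubiquitin genes stayed below 0 in all 17 (-0.17 to -0.02). Groups of other roles also stayed above 0, in the 16 alternatives that held them. These were Cdc42 and effectors (0.02 to 0.22) and the group of other names (0.06 to 0.19). The medians of 9 of 16 role groups kept their sign in all alternatives run, and 7 turned in some: transport and other kinesins in 5, CDK inhibitors in 4, cell cycle CDKs and phosphatases in 3, G1 and G1/S cyclins and other CDKs in 2 each, and the clamp and loader (0.05 with the local median subtracted) and other cyclins in 1 each. No paired analysis was possible because the arrays form 1 group and 1 replicate.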

Other observations

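The name rule misses genes whose symbols changed after the arrays were printed. By current symbols, 12 further spots have names that match the rule, and 6 of them passed the background filter. Recc1, now Rfc1, the large subunit of the clamp loader, had 0.23 and 0.15 on arrays 1 and 2, above 0 on both, beside a median of -0.03 for the clamp and loader genes measured by name. Hrpt2, now Cdc73, had 0.14 and -0.31, Ccrk, now Cdk20, 0.36 and -0.08, and Pctk1, now Cdk16, 0.08 and -0.11, each with opposite signs on the arrays. D19Ertd144e, now Cdk2ap2, had -0.04 and 0.08, also opposite in sign, and D11Ertd497e, now Cdkn2aipnl, had -0.23 and -0.27, below 0 on both.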
